A study of Mus musculus with 6 samples.

Results

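The genes described here are 9 that bone marrow macrophages are known for: Mrc1, Lyz2, Cd68, Adgre1, C1qa, C1qc, Cd14, Marco and Vsig4. They were chosen by name, with earlier results of these data known. Every probe set whose array annotation names 1 of these genes and no other was taken, which gave 10 probe sets of the 45037 non-control probe sets on the array and 9 of the 18193 genes that could be named. Marco had 2 probe sets and each other gene had 1. The arrays are Affymetrix MOE430_2 and hold 6 samples of cells taken fresh from the bone marrow of wild-type mice of the C57BL/6 background, with no treatment. All 6 samples were sorted for cells without CD45, carried by leukocytes, TER119, carried by red cells and their precursors, and CD31, carried by endothelium. Within this gate 3 samples were positive for Ebf2, a transcription factor of immature mesenchymal cells, and 3 were negative for it. Each RNA sample held the yield of 1000 or 2000 cells, amplified in a dual round. The sources used here do not give which sample had which cell number, the age and number of the mice, or how Ebf2 was detected. Nothing states that replicates came from separate mice, so p-values measure only how far these samples spread, and that spread may be technical.

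Macrophages of the marrow clear the nuclei that red cell precursors expel, recycle their iron, and engulf dying neutrophils. The 9 genes cover their tools: surface receptors for sugars and particles (Mrc1, Marco), for complement fragments (Vsig4) and for endotoxin (Cd14), an adhesion receptor used as a surface marker (Adgre1), a lysosomal membrane glycoprotein (Cd68), an enzyme that cuts bacterial cell walls (Lyz2) and chains of the C1q complex that starts the classical complement pathway (C1qa, C1qc). Several of them are not limited to macrophages: neutrophils and their precursors make much lysozyme, sinusoidal endothelium makes the mannose receptor, and neutrophils carry CD14. Macrophages carry CD45, so the gate was set to remove them from both groups. In bulk samples such as these, fewer cells of a type and less RNA per cell cannot be told apart.

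Signals are given as log2 of the deposited RMA values, and a difference is the mean of the Ebf2-positive minus the mean of the Ebf2-negative arrays on that scale. A gene was called where the adjusted p of limma's moderated test, with Benjamini-Hochberg adjustment over all 18193 genes, was under 0.05. Ebf2 itself read 8.13, 8.80 and 8.04 in Ebf2-positive against 3.10, 4.02 and 3.84 in Ebf2-negative samples, as the sort labels say. The median intensity of an array lay between 12.9 and 14.0, and the files give no detection calls. As a rough guide to a signal with little transcript behind it, 13 genes of other organs were read (kidney, pancreas, lung and the like). They were chosen after the data were seen and lay between 1.78 and 4.89 on single arrays. Probe sets differ in their background, so a level near that range is not proof that a transcript is missing. Of all genes, 38.8% read under 5 on every array. The poly-A control RNAs of the array read 12.16 to 12.58 in Ebf2-positive and 8.70 to 10.52 in Ebf2-negative samples. Centring each array on them moved the median of all genes by -2.48 and cut the share of higher genes among those called from 44.3% to 1.43%, with all 9 macrophage genes then called lower. Where every value of the lower group lies inside the range from 1.78 to 4.89, as for Axl, Slc11a1, Vcan, Cd163, Lyve1, Cd48, Vav1, Was, Mcpt8 and Ms4a2, the difference may be compressed by the floor of the hybridisation. All differences below are relative to RMA's own scaling, in which the median of all genes was 0.07.

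Of the 9 genes, 1 fell in Ebf2-positive cells (Mrc1), 0 rose and 8 did not pass the test. Over all genes 13.6% were called lower and 10.8% higher, so 1 call of 9 is near the background. Counts of the lists below are to be read beside the same shares, and the lists too were chosen with earlier results of these data known. At an unadjusted p under 0.05 the counts of limma were also 1 lower and 0 higher. At the level of probe sets the count was again 1 lower and 0 higher of 10, against 8.76% lower and 6.39% higher over all probe sets. The median difference of the 9 genes was -0.01, beside 0.07 for all genes. The arrays of both groups did not overlap for Mrc1, which was lower, and Adgre1, which was higher. Such a separation was seen for 21.2% of all genes in the lower and 21.8% in the higher direction. Of the 9 genes, 6 read under 5 on every array, beside 38.8% of all genes, and the ones that did not were Mrc1, Lyz2 and Cd14.

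**Figure D1:**
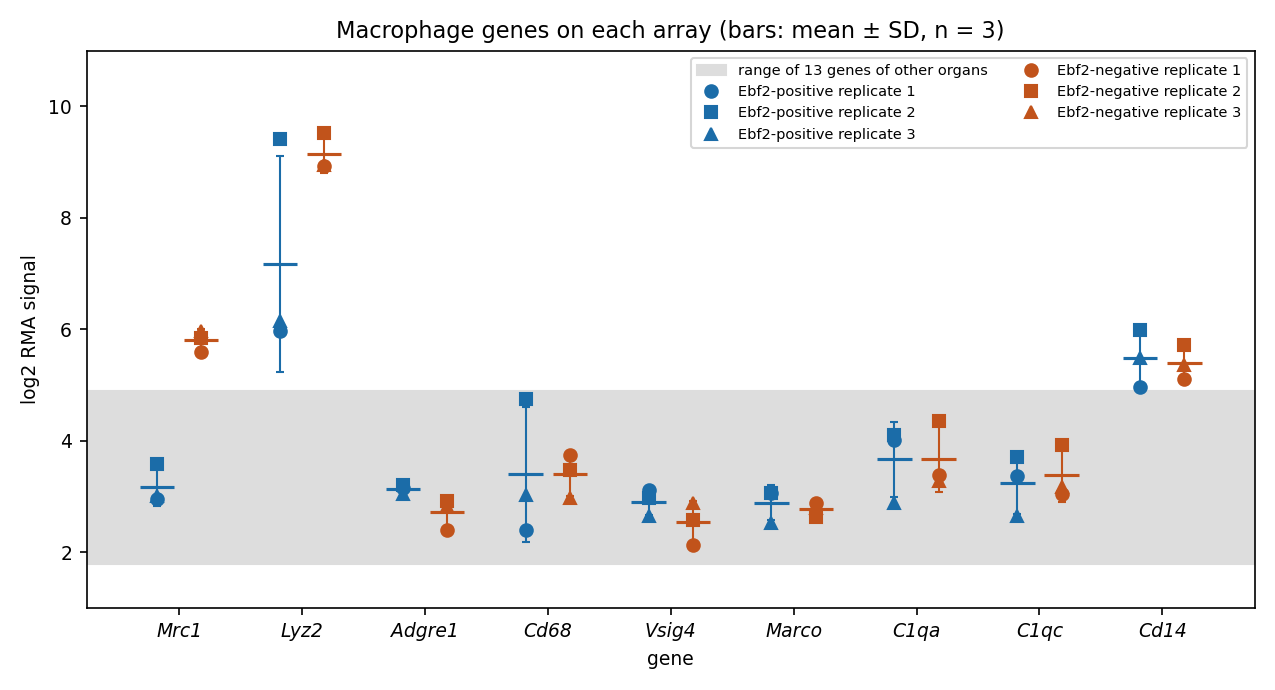
Log2 RMA signal (vertical axis) of the 9 macrophage genes on each of the 6 arrays, with Ebf2-positive samples in blue, Ebf2-negative samples in orange, a marker shape for each replicate number, bars for the group means ± SD (n = 3), and grey for the range of 13 genes of other organs. Mrc1 is lower in every Ebf2-positive sample, Lyz2 is lower in 2 of the 3, and Adgre1, Cd68, C1qa, C1qc, Marco and Vsig4 lie inside the grey range.

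Promoters are shown for Mrc1, Vsig4 and Lyz2 because PU.1, the master regulator of macrophages, binds DNA at a core that reads GAGGAA. RefSeq windows of 250 bases before the transcription start (GRCm38.p6) were found for 6 of the 9 genes: Cd68, C1qc, Lyz2, Marco, Mrc1 and Vsig4. Capitals mark GAGGAA on either strand. The window of Mrc1, the gene that was lower in Ebf2-positive cells, is chr2:14229164-14229413 on the plus strand and has 3 matches, 35, 167 and 180 bases before the start. The window of Vsig4, whose groups did not differ by the test, is chrX:96293439-96293688 on the minus strand and has 2 matches, at 53 and 155 bases. The window of Lyz2, the gene with the largest spread between Ebf2-positive samples, is chr10:117282273-117282522 on the minus strand and has 0.
Mrc1: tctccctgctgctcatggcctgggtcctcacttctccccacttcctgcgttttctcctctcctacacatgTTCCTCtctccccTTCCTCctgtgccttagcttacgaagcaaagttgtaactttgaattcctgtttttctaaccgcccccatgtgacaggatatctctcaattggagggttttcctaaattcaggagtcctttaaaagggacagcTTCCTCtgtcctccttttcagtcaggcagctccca
Vsig4: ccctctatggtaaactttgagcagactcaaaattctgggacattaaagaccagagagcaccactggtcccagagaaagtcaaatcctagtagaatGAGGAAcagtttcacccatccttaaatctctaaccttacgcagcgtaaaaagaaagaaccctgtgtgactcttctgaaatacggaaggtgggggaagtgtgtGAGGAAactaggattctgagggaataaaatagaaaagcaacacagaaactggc
Lyz2: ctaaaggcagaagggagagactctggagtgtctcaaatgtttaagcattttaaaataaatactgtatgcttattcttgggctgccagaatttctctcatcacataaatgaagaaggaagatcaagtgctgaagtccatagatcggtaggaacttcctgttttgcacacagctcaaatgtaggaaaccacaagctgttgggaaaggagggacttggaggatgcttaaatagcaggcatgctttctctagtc

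The motif stood in 5 of the 6 windows, with 1 match each in Cd68, C1qc and Marco, and in 23.3% of 32851 RefSeq promoter windows of the same length. TTGCNNAA, the motif of C/EBP factors, was found in the Cd68 window and in 9.6% of all windows. TGCTGA, a Maf motif, was found in the Lyz2 window and in 16.1% of all windows, and TATAAA in 0 of the 6 and in 12.4% of all. Both strands were searched, and no match overlapped a match of another motif. A match is a description of these letters and not a bound site: the motif was present in windows of genes with a difference (Mrc1) and without a called one (Vsig4, Marco, C1qc, Cd68).

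Mrc1 encodes the mannose receptor CD206, which takes up glycoproteins that end in mannose. Its signal was 2.95, 3.58 and 3.01 in Ebf2-positive and 5.59, 5.85 and 5.97 in Ebf2-negative samples. Every Ebf2-positive sample lay below every Ebf2-negative one, with 2.01 between the nearest values. The means were 3.18 ± 0.35 and 5.80 ± 0.19 (SD, n = 3 each), a difference of -2.62 (SE 0.24, 95% confidence interval -3.21 to -2.04), which is 6.17-fold lower (adjusted p = 0.00099 by limma). The Ebf2-positive values lie where genes of other organs read, so the fold may be compressed by the floor of the hybridisation. The call held without any 1 of the 6 arrays, with adjusted p between 0.00156 and 0.00807, and against a minimum difference of 1 on the log2 scale (adjusted p = 0.00716).

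Sinusoidal endothelium also makes the mannose receptor, so the endothelial list was read beside it. Of 12 measured endothelial genes, 2 rose, 1 fell and 9 did not pass, counts near the shares over all genes (10.8% higher and 13.6% lower). Lyve1, a hyaluronan receptor of sinusoids and lymphatic vessels and also of some macrophages, read 2.61, 2.28 and 2.53 in Ebf2-positive against 4.68, 5.002 and 3.09 in Ebf2-negative samples (difference -1.78, SE 0.50, adjusted p = 0.0448). That call was lost when any 1 array other than Ebf2-negative replicate 3 was left out, and with the average of its probe sets (-0.93, adjusted p = 0.0788). Stab2, the scavenger receptor of sinusoids, was named after its values were seen and read 4.17, 3.33 and 3.37 against 4.52, 5.56 and 4.27 (-1.16, adjusted p = 0.0921). In the other direction went Tek, the angiopoietin receptor (2.51, adjusted p = 0.00565), and Esam, an adhesion molecule of endothelial junctions (2.48, adjusted p = 0.0062). Pecam1, which encodes CD31, read 3.41, 4.15 and 3.15 against 2.75, 3.80 and 2.48 (0.56, adjusted p = 0.403). All its values lay inside the range of the genes of other organs. The list's mean signal ran from 5.38 to 6.01 over Ebf2-positive and from 4.59 to 5.73 over Ebf2-negative samples. Its part in the Mrc1 difference was not tested.

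Lyz2 encodes lysozyme M, made in quantity by macrophages and neutrophils alike. It read 5.97, 9.41 and 6.16 in Ebf2-positive and 8.93, 9.53 and 8.96 in Ebf2-negative samples. Ebf2-positive replicate 2 lay inside the Ebf2-negative range, while the other two lay well under it. The means of 7.18 ± 1.94 and 9.14 ± 0.34 (SD, n = 3 each) differed by -1.96 (SE 0.91, 95% confidence interval -4.14 to 0.22, adjusted p = 0.178 by limma). Without Ebf2-positive replicate 2 the difference was -3.08 (adjusted p = 0.00206), and without both arrays numbered 2 it was -2.88 (adjusted p = 0.00602). Replicate 2 was singled out after its values were seen, so these 2 adjusted p are a description and not a test. With any other 1 array left out, Lyz2 was not called (adjusted p between 0.296 and 0.385 by limma). A single array therefore decided whether Lyz2 passed the test.

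Lyz1, the paralogue that lies next to Lyz2 in the genome, can share signal with it on probe sets of the cross-hybridising kind. Of its 3 probe sets, 1436996_x_at read 7.80, 10.89 and 8.56 in Ebf2-positive against 10.76, 11.68 and 11.26 in Ebf2-negative samples (-2.15). Without Ebf2-positive replicate 2 the difference of this probe set was -3.05 (adjusted p = 0.00486), and with any other 1 array left out it was not called. The probe set 1439426_x_at read 6.49, 9.45 and 7.32 against 9.48, 10.39 and 9.96 (-2.19). The only one not of that kind, 1450822_at, read between 2.30 and 2.91 on all 6 arrays. The Lyz2 probe set is itself not of that kind.

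Some genes of neutrophil granules gave a pattern by sample like that of Lyz2. Of the 14 measured genes of the neutrophil list, 2 rose, 1 fell and 11 did not pass, counts near the shares over all genes (10.8% higher and 13.6% lower). The list's median was -0.66, and it was -0.40 without Ebf2-positive replicate 1 and -1.07 without Ebf2-positive replicate 2. The count of lower genes was 7 without Ebf2-positive replicate 2 and 0 without Ebf2-positive replicate 1 or Ebf2-negative replicate 2 or 3, and that of higher genes was 0 without Ebf2-negative replicate 3 and 1 without Ebf2-positive replicate 1 or 2 or Ebf2-negative replicate 1. The genes of specific granules, which neutrophils make late in their maturation, were named after their values were seen. Ltf (lactoferrin) read 6.17, 9.97 and 7.54 in Ebf2-positive and 9.95, 10.60 and 9.86 in Ebf2-negative samples (-2.24, adjusted p = 0.13). Lcn2, a carrier of bacterial siderophores, read 5.21, 9.07 and 5.33 against 8.48, 9.91 and 9.14 (-2.64, adjusted p = 0.128). Ebf2-positive replicate 2 was again the sample near the Ebf2-negative values. Without it the differences were -3.28 for Ltf (adjusted p = 0.00762), -3.91 for Lcn2 (adjusted p = 0.00375), -2.96 for Ngp (adjusted p = 0.00555) and -2.66 for the cathelicidin gene Camp (adjusted p = 0.0131). That array and these genes were singled out after their values were seen, so these adjusted p are a description and not a test. With any other 1 array left out, none of these genes was called.

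The primary granules form early in neutrophil maturation, and their genes were set apart after their values were seen. Of 4, 2 rose and 2 did not pass. Mpo, the gene of myeloperoxidase, read 11.15, 11.36 and 11.29 in Ebf2-positive against 9.35, 10.40 and 9.78 in Ebf2-negative samples and rose by 1.42 (SE 0.29, adjusted p = 0.0157). Prtn3, the gene of proteinase 3, rose by 1.53 (SE 0.36, adjusted p = 0.0254). Elane and Ctsg, the genes of neutrophil elastase and cathepsin G, differed by 1.29 and 0.93 with overlapping groups (adjusted p = 0.239 and 0.28). The gelatinase gene Mmp9 fell by 1.51 (SE 0.42, adjusted p = 0.0443). The call of Mpo was lost without Ebf2-negative replicate 3, that of Prtn3 held only without Ebf2-positive replicate 3 or Ebf2-negative replicate 2, and that of Mmp9 only without Ebf2-positive replicate 3 or Ebf2-negative replicate 1. The mean signal of the neutrophil list was 6.71, 8.35 and 6.996 in Ebf2-positive and 7.47, 8.34 and 7.99 in Ebf2-negative samples, and its part in the Lyz2 values was not tested.

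**Figure D2:**
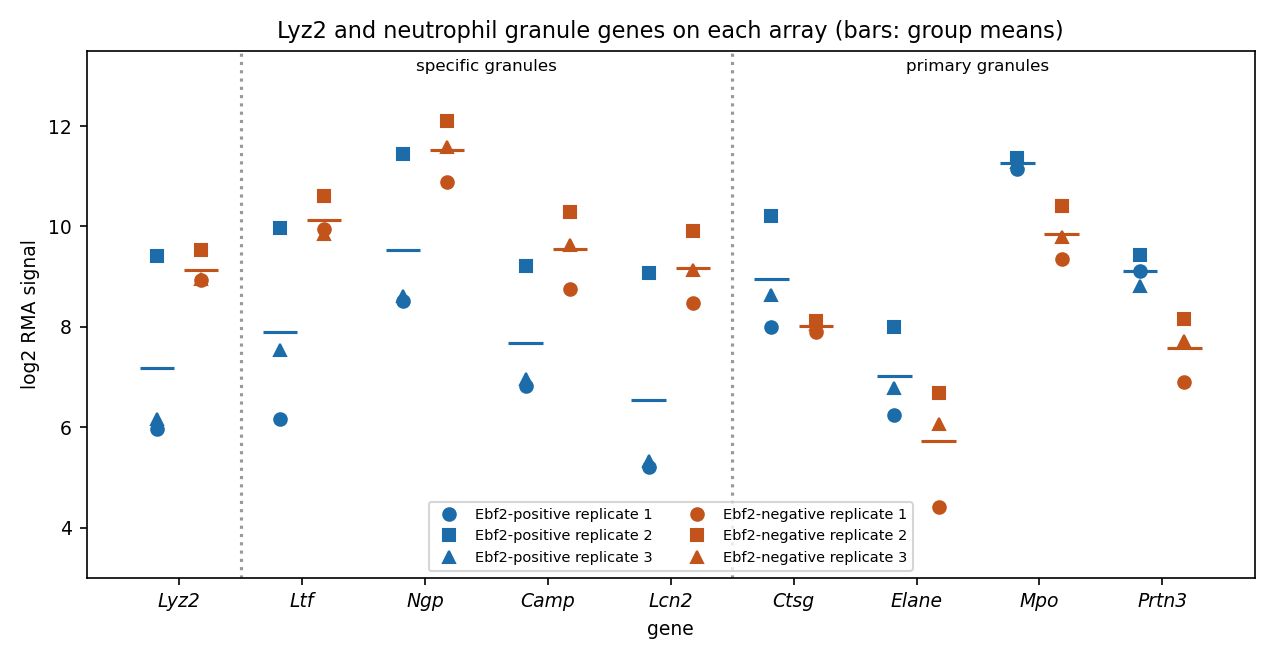
Log2 RMA signal (vertical axis) of Lyz2, 4 genes of specific granules and 4 genes of primary granules on each array, with colours and shapes by group and replicate and bars at the group means. In Ebf2-positive replicate 2 (blue squares) Lyz2 and the specific granule genes lie near the Ebf2-negative samples, while Mpo and Prtn3 are higher in all 3 Ebf2-positive samples. Elane and Ctsg are highest in Ebf2-positive replicate 2.

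Adgre1 encodes an adhesion receptor that is the most used surface marker of mouse tissue macrophages. It read 3.14, 3.20 and 3.04 in Ebf2-positive and 2.39, 2.92 and 2.82 in Ebf2-negative samples. The groups did not overlap, but the nearest values differed by 0.12. The difference was 0.42 (SE 0.21, 95% confidence interval -0.09 to 0.93, adjusted p = 0.213), and all 6 values lie inside the range of the genes of other organs.

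Cd68 encodes macrosialin, a glycoprotein of late endosomes and lysosomes. It read 2.40, 4.76 and 3.02 in Ebf2-positive and 3.75, 3.47 and 2.98 in Ebf2-negative samples. The highest and the lowest of the 6 values were both Ebf2-positive. The difference of -0.01 (SE 0.60, adjusted p = 0.997) has a 95% confidence interval of -1.46 to 1.45, so a change of up to about that size in either direction would fit these arrays.

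Vsig4, the receptor through which tissue macrophages catch particles coated with C3b, read 3.11, 2.97 and 2.64 in Ebf2-positive against 2.13, 2.58 and 2.89 in Ebf2-negative samples (0.37, SE 0.26, 95% confidence interval -0.26 to 1.01, adjusted p = 0.362). Marco, a class A scavenger receptor, read 3.06, 3.07 and 2.53 against 2.88, 2.62 and 2.80 on the probe set 1449498_at (0.12, SE 0.22, adjusted p = 0.743). Its other probe set, 1458297_s_at, read 2.91, 2.33 and 2.64 against 1.96, 2.10 and 2.36 (0.49, SE 0.22, adjusted p = 0.217 over probe sets). Groups overlapped for Vsig4 and for both Marco probe sets.

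C1qa and C1qc lie side by side with C1qb, and their products join in 1 complex. C1qa read 4.01, 4.09 and 2.89 in Ebf2-positive and 3.38, 4.35 and 3.28 in Ebf2-negative samples (-0.01, SE 0.44, 95% confidence interval -1.06 to 1.05, adjusted p = 0.992). C1qc read 3.36, 3.70 and 2.64 against 3.05, 3.93 and 3.16 (-0.14, SE 0.37, 95% confidence interval -1.03 to 0.74, adjusted p = 0.811). In both genes the highest value of each group was the array numbered 2 and the lowest of all was Ebf2-positive replicate 3. C1qb, the remaining chain, was -0.29 on its brightest probe set (adjusted p = 0.53). On its other probe sets Ebf2-positive replicate 2 stood alone, at 4.57 among values of 2.30 to 2.99 on 1417063_at and at 5.35 among values of 2.03 to 3.56 on 1437726_x_at.

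The partners of C1q in the C1 complex behaved otherwise. Of 11 measured complement genes, C1qb included, 3 rose, 0 fell and 8 did not pass, with a median of 1.002. C1s1, a protease that C1q carries, read 11.48, 11.24 and 11.46 in Ebf2-positive against 7.60, 8.32 and 7.45 in Ebf2-negative samples (3.61, SE 0.27, adjusted p = 0.000552). C1ra, the protease that cuts it, rose by 3.26 (SE 0.61, adjusted p = 0.0111), and C2, the next substrate in the cascade, by 2.45 (SE 0.59, adjusted p = 0.026). Stromal cells are known to make both proteases, while C1q comes mostly from macrophages. The call of C2 was lost without Ebf2-positive replicate 1 or 3 or Ebf2-negative replicate 1 or 3. Its probe set is of the cross-hybridising kind, and without such probe sets C2 was 2.43 higher and not called (adjusted p = 0.0628).

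Cd14 encodes the co-receptor that hands endotoxin to TLR4. It read 4.96, 5.99 and 5.48 in Ebf2-positive and 5.11, 5.72 and 5.36 in Ebf2-negative samples. The ranges lay almost on each other, with means of 5.48 ± 0.52 and 5.40 ± 0.30 (SD, n = 3 each) and a difference of 0.08 (SE 0.32, 95% confidence interval -0.68 to 0.85, adjusted p = 0.876). Of 10 other measured genes of endotoxin recognition, 1 rose and 9 did not pass. The riser was Lbp, whose secreted product delivers endotoxin to CD14, at 8.81, 9.89 and 9.003 against 5.87, 6.78 and 4.81 (3.41, SE 0.54, adjusted p = 0.00604). The count was 3 without Ebf2-negative replicate 2 and 2 without Ebf2-positive replicate 1.

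**Figure D3:**
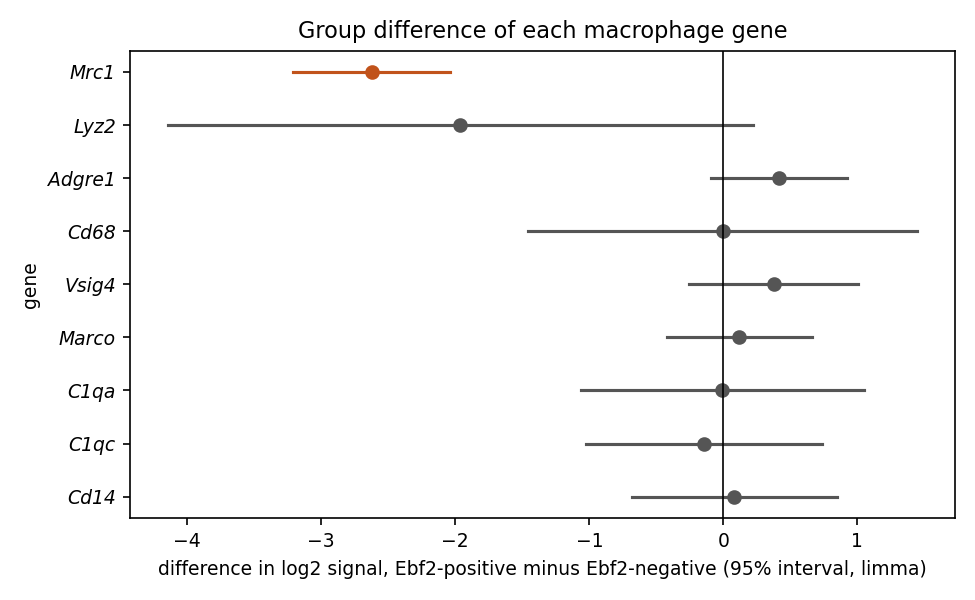
Difference in log2 RMA signal, Ebf2-positive minus Ebf2-negative (horizontal axis), for each of the 9 genes, as points with 95% confidence intervals of the limma fit to all 6 arrays and with called genes in orange. The interval of Mrc1, from -3.21 to -2.04, is the only one of the 9 that does not hold 0, and that of Lyz2, from -4.14 to 0.22, is the widest.

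Of 20 other surface receptors of macrophages, all measured, 2 rose, 2 fell and 16 did not pass, with a median of 0.03. Among all genes 10.8% were called higher and 13.6% lower, so these counts are near the background. Of the 20 receptors, 11 read under 5 on every array, beside 38.8% of all genes. Axl, a receptor for phosphatidylserine on dying cells, was 8.41, 9.45 and 9.04 in Ebf2-positive against 4.27, 4.18 and 3.67 in Ebf2-negative samples (4.92, SE 0.33, adjusted p = 0.000393). Sirpa, the receptor of the CD47 signal that blocks engulfment, rose by 3.14 (SE 0.18, adjusted p = 0.000322). With the average of their probe sets Axl was 2.63 and Sirpa 1.31 higher, still called. Both genes are also known from cells that are not macrophages. Fcgr3, a receptor for IgG, read 4.22, 5.14 and 3.16 against 6.81, 6.26 and 7.18 (-2.58, SE 0.52, adjusted p = 0.0145), a call lost without Ebf2-negative replicate 1 or 3. Cd163, the haemoglobin scavenger receptor, fell by 0.80 (SE 0.22, adjusted p = 0.0436) between values that all lay inside the range of the genes of other organs. The count of lower receptors was 4 without Ebf2-positive replicate 2, 0 without Ebf2-negative replicate 1 or 3, and 1 without Ebf2-positive replicate 1 or 3 or Ebf2-negative replicate 2. The call of Cd163 was lost without any 1 array other than Ebf2-positive replicate 2.

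The 10 defining macrophage markers were Adgre1, C1qa, C1qb, C1qc, Vsig4, Marco, Cd163, Siglec1, Csf1r and Mertk. On the probe set used for each gene, 8 of them read under 5 on every array, beside 38.8% of all genes. The ones that did not were Csf1r and Mertk. Another probe set of C1qb, 1437726_x_at, read 5.35 on Ebf2-positive replicate 2. Csf1r, the receptor of the growth factor that macrophages need, was named after its values were seen and read 3.23, 6.20 and 4.001 in Ebf2-positive against 4.23, 5.48 and 5.19 in Ebf2-negative samples (-0.49, SE 0.78, adjusted p = 0.695). Mertk, a receptor for dying cells, read 3.94, 6.44 and 5.55 against 2.99, 4.34 and 3.93. In both genes Ebf2-positive replicate 2 was the highest of the 6 samples. With most defining markers at such levels, "macrophage" is used here as the name of the gene list and not of a population found in either group.

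Of 11 measured regulators of macrophage identity, 2 rose, 0 fell and 9 did not pass, with a median of 0.75. Klf4 read 11.72, 11.22 and 11.31 against 7.04, 8.26 and 5.89 (4.35, SE 0.58, adjusted p = 0.0033), and Id3 rose by 2.37 (SE 0.53, adjusted p = 0.0208). Neither factor is particular to macrophages. Spi1, the gene of PU.1, read 4.99, 5.25 and 4.77 against 4.93, 5.17 and 5.78 (-0.29, SE 0.28, adjusted p = 0.514) and was named after its values were seen. The call of Id3 was lost without Ebf2-positive replicate 2 or 3 or Ebf2-negative replicate 1 or 3, and each of these left 1 higher regulator.

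Island macrophages nurse red cell precursors and return their iron to the blood. Of 12 measured genes of island adhesion and iron recycling, 3 rose, 2 fell and 7 did not pass, with a median of 0.17. The iron exporter gene Slc40a1 read 7.90, 8.26 and 7.25 in Ebf2-positive against 10.64, 10.37 and 10.16 in Ebf2-negative samples (-2.58, SE 0.31, adjusted p = 0.00228). Red cell precursors make this exporter too, and all 9 erythroid genes of the gate check were lower in Ebf2-positive cells, with mean signals of 4.75 to 5.34 against 9.53 to 9.83. Their part in the Slc40a1 difference was not tested. The other gene that fell was Cd163. Slc11a1, the gene of the phagosomal metal pump NRAMP1, was 6.94, 5.49 and 6.79 against 2.84, 3.46 and 3.92 (SE of the difference 0.47, adjusted p = 0.00559). Itgav, an adhesion partner of red cell precursors, rose by 2.22 (SE 0.25, adjusted p = 0.00179). With the average of its probe sets Itgav was 0.83 higher and not called (adjusted p = 0.141). Dnase2a, the nuclease that digests expelled nuclei, rose by 1.52 (SE 0.44, adjusted p = 0.0482), a call lost without any 1 array other than Ebf2-positive replicate 2. The count of lower genes was then 1 as well, since the same arrays decide the call of Cd163.

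Of 14 measured lysosomal genes, 6 rose, 1 fell and 7 did not pass, with a median of 0.70. Grn (progranulin) rose by 1.94 (SE 0.28, adjusted p = 0.0042), Ctsl (cathepsin L) by 1.81 (SE 0.34, adjusted p = 0.0103) and Ctsh (cathepsin H) by 2.24 (SE 0.57, adjusted p = 0.0319). With the average of its probe sets Ctsl was 0.84 higher and not called (adjusted p = 0.0511). These enzymes and carriers are made by most cell types. Laptm5, a lysosomal membrane protein of blood cells, fell by 2.64 (SE 0.52, adjusted p = 0.0127), but the value was 0.19 when probe sets of the cross-hybridising kind were left out and -0.75 with the average of its probe sets (adjusted p = 0.0458). The call of Laptm5 was lost without Ebf2-negative replicate 3, and the count of lower genes was 2 without Ebf2-positive replicate 3. The call of Ctsh was lost without Ebf2-positive replicate 2 or 3 or Ebf2-negative replicate 1 or 3.

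The gate was set to remove other cell types that make some of the 9 genes, and their markers were read in the same way. Of 13 leukocyte genes, 1 rose, 7 fell and 5 did not pass, with a median of -2.04 and list means of 5.63 to 6.21 in Ebf2-positive against 7.27 to 7.66 in Ebf2-negative samples. Among them Cd48, Vav1 and Was fell by 3.70, 3.12 and 2.90, while Lsp1 rose by 3.55. Ptprc, which encodes CD45, read 6.68, 6.76 and 3.59 against 8.78, 7.98 and 8.23 (-2.65, adjusted p = 0.0698), and leaving out Ebf2-positive replicate 3 gave -1.61 (adjusted p = 0.0162). Its other probe set, 1440165_at, read between 2.23 and 2.96 on all arrays (-0.14). With the average of its probe sets Ptprc was -1.40 and not called (adjusted p = 0.0704). The count of lower leukocyte genes was 4 without Ebf2-negative replicate 3 and 9 without Ebf2-positive replicate 2. The lower Mrc1 signal thus stood beside lower leukocyte signals in Ebf2-positive samples, and their part in it was not tested.

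Of 8 measured genes of basophils, mast cells and eosinophils, 5 fell, with list means of 3.92 to 4.06 in Ebf2-positive against 6.80 to 7.08 in Ebf2-negative samples. The basophil protease gene Mcpt8 and the IgE receptor chain gene Ms4a2 fell by 5.89 and 5.40. With the average of its probe sets the difference of Ms4a2 was -3.81, still called. The count of lower genes in this list was 3 without Ebf2-negative replicate 3 and 6 without Ebf2-positive replicate 1. Of 10 measured monocyte genes, 2 rose, 1 fell and 7 did not pass, beside 10.8% higher and 13.6% lower over all genes. List means were 5.38 to 6.21 against 5.06 to 5.36. Vcan rose by 4.73 and Ace by 3.18, both also made by other cells. With the average of their probe sets Vcan was 1.61 and Ace 2.20 higher, still called. The one that fell was Chil3, a chitinase-like protein of monocytes, neutrophils and some macrophages, at 8.54, 9.80 and 8.56 against 10.58, 10.78 and 10.61 (-1.69, adjusted p = 0.0192), a call kept only without Ebf2-positive replicate 2 or 3. Of the markers of dendritic cells (11 measured) and of B, T and NK cells (9 measured), limma called 0 with all arrays, and 1 of each list had an unadjusted p under 0.05. Without 1 array, 1 dendritic gene was called higher (Ebf2-positive replicate 1 left out) or lower (Ebf2-positive replicate 3 left out), and 2 lymphoid genes were called lower (Ebf2-positive replicate 2 left out). Of 11 osteoclast genes, 1 rose (Ctsk by 3.06, a collagen-cutting protease also made by fibroblasts) and 1 fell (Mmp9). The higher count was 3 without Ebf2-positive replicate 1 and 2 without Ebf2-positive replicate 2. Of 10 genes of marrow stroma, 7 rose and 0 fell, with list means of 11.44 to 12.02 against 8.42 to 9.53. Where a list had 0 calls in a direction, the counts at an unadjusted p under 0.05 were 1 lower regulator and 0 lower complement, endotoxin and stromal genes, and 0 higher basophil and erythroid genes.

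**Figure D4:**
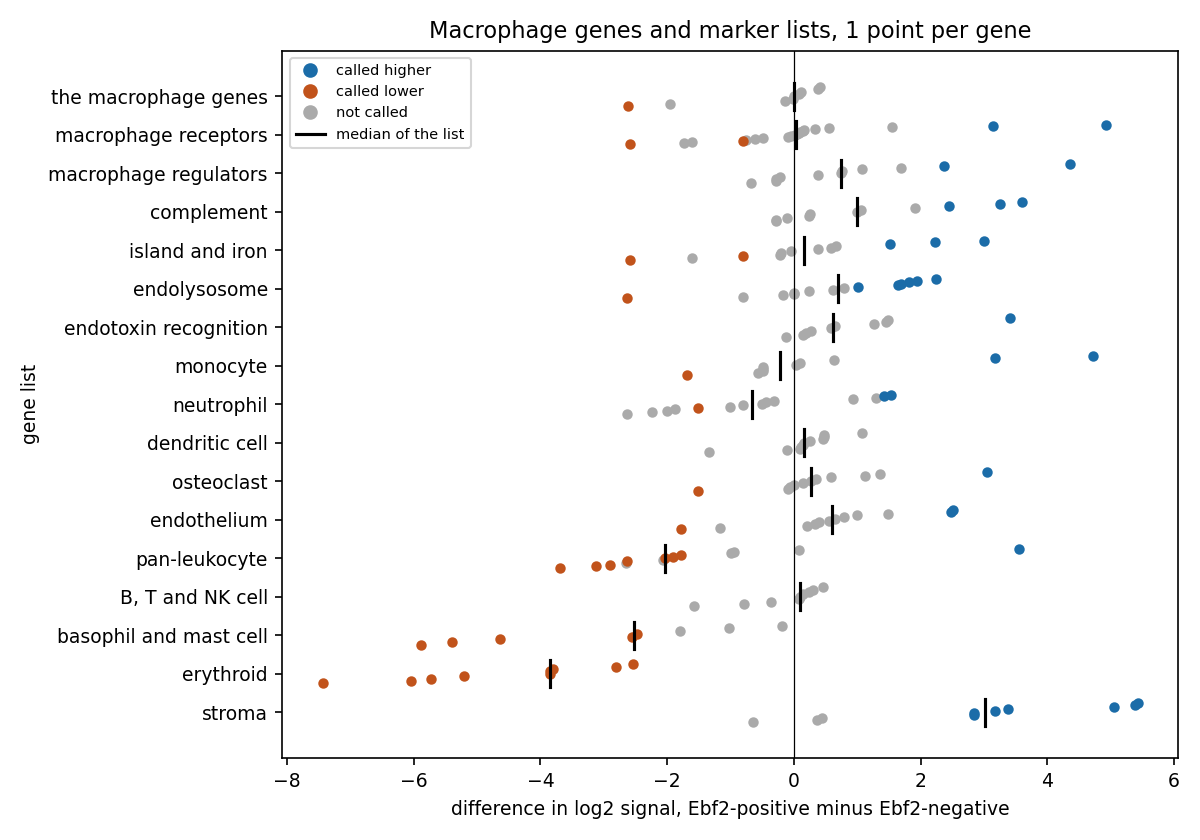
Differences in log2 RMA signal, Ebf2-positive minus Ebf2-negative (horizontal axis), for every measured gene of each list (rows, 1 point a gene), with called genes in colour and a bar at the list's median. The 9 macrophage genes centre on -0.01, the erythroid, basophil and leukocyte genes lie mostly below 0, and 9 of the 10 stromal genes lie above it, 7 of them called.

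On the probe set used for each gene, Ebf2-positive replicate 2 was the highest of the Ebf2-positive samples for 8 of the 9 macrophage genes, the exception being Vsig4. The same held for 13 of the 14 neutrophil genes, 13 of the 20 receptors, 10 of the 10 stromal genes, 1 of the 9 erythroid genes and 34.4% of all genes. Marco and Adgre1 counted by small margins (3.07 against 3.06 and 3.20 against 3.14). On the other Marco probe set, 1458297_s_at, Ebf2-positive replicate 2 was the lowest Ebf2-positive sample, at 2.33 against 2.91 and 2.64. The mean of the 9 genes was 3.66, 4.53 and 3.49 in Ebf2-positive and 4.14, 4.55 and 4.25 in Ebf2-negative samples, so this sample lay above all others but Ebf2-negative replicate 2. Among the 9, Lyz2 (5.97, 9.41 and 6.16) and Cd68 (2.40, 4.76 and 3.02) rose most on it within the Ebf2-positive group. The mean thus leans on few genes. What sets Ebf2-positive replicate 2 apart was not tested.

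Across the 6 arrays, the genes whose profile was most like the mean profile of the 9 genes (each centred on its own mean, among genes with a mean of at least 6) were Psme4, with a Pearson r of 0.989, and Vps53, with 0.984. Adipoq, the adiponectin gene of fat cells and of marrow stroma that leans to fat, had an r of 0.969 and read 6.28, 9.69 and 6.35 in Ebf2-positive against 7.71, 10.19 and 8.33 in Ebf2-negative samples. Slc43a3, Gtf2b, Vrk3, Glrx and Fam122a followed, with r between 0.962 and 0.969. The 6 arrays fall into 2 groups and share 1 normalization, so these values are a description with no test.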

How the data were processed

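The authors deposited 1 intensity per probe set and array by RMA (background correction, quantile normalization, a summary of each probe set), as the submitters' processing notes name it, with 3 Ebf2-positive and 3 Ebf2-negative arrays. The sources used here give no version of RMA. The deposited intensity values are linear, as their range shows, so log2 was taken first. Quantile normalization hides differences in total RNA per cell, and dual amplification of few cells adds spread to dim genes. After 64 control probe sets were left out, genes were named from GEO's array annotation, and each gene was its probe set with the highest mean among those naming only that gene.

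The comparison used R 4.3.3 and limma 3.58.1 (two-sided lmFit and eBayes fits, Benjamini-Hochberg over all genes or all probe sets, threshold 0.05), on all 6 arrays with no covariate, and the script was checked on simulated data. The number of arrays limits the precision. The 9 genes and the 16 further lists were chosen with earlier results of these data known. Named were the 9 genes, C1qb, the genes of the sort, up to 4 called genes of a list with the largest differences, and the 8 genes most alike in profile; of the basophil list only 2 of these were named, and for erythroid, stromal, dendritic and lymphoid genes only counts are given. The others were named after their values were seen, and so were the 13 genes of other organs. Alternatives were other scalings (median, 75th percentile, a further quantile step, poly-A controls), an offset, a filter on dim genes, other variance models, array weights, a minimum difference, the replicate number as a block, other probe set rules, and leaving out arrays. Promoters came from RefSeq (GRCm38.p6) and were searched with Python 3.11.15. Protein sequences were not analysed here.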

Additional observations from a re-analysis of the deposited data

How the results depend on the processing

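The call of Mrc1 held under every alternative that tested it. A filter on a mean log2 of at least 5 leaves Mrc1 out, so the count of lower macrophage genes was then 0, and 0 for probe sets. The count was 2 without both arrays numbered 2 (2 probe sets), between 1 and 2 when 1 array was left out (1 to 2 probe sets), and 9 (10 probe sets) after centring on the poly-A controls. Of 65 gene differences followed, 36 were called and 25 of these lost the call under at least 1 alternative. Of the 65, 11 kept direction and side throughout. Under centring on the poly-A controls 227 of 18193 genes were called higher and 15596 lower. Every followed gene that was not called under RMA's own scaling changed its call or sign there. Ace, C1s1, Ctsk, Lbp, Lsp1, Sirpa, Slc11a1 and Tek lost the call only there. Causes of the other changes were not tested.

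Centring on the poly-A controls, which moves all genes down, turned the sign of Adgre1 (-2.06), Cd14 (-2.40), Marco (-2.36), Vsig4 (-2.10), C2 (-0.026), Ctsg (-1.55), Ctsh (-0.24), Ctsl (-0.67), Dnase2a (-0.96), Elane (-1.19), Esam (-0.0040), Grn (-0.54), Id3 (-0.11), Itgav (-0.26), Mpo (-1.06), Pecam1 (-1.92) and Prtn3 (-0.95). List medians became -4.998 (basophil), -1.48 (complement), -2.32 (dendritic), -6.33 (erythroid), -2.31 (island and iron), -4.52 (leukocyte), -1.86 (endotoxin), -2.38 (lymphoid), -1.77 (lysosome), -2.70 (monocyte), -3.13 (neutrophil), -2.20 (osteoclast), -2.45 (receptors), -1.73 (regulators), -1.87 (endothelium) and 0.54 (stroma). Centring on the 75th percentile, which moved the median of all genes by 0.12, gave 0.11 for both C1qa and Cd68.

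Signs also changed elsewhere, mostly of differences close to 0. An offset of 16 gave 0.0017 for C1qa and 0.072 for Cd68, array weights 0.10 for Cd68, and a further quantile step 0.054 for Fam122a. Without both arrays numbered 2, C1qa was 0.12, Cd14 -0.016 and Marco -0.043. Averaging probe sets gave 0.13 for C1qb, and leaving out cross-hybridising probe sets gave 0.37 for C1qb, 0.11 for Fam122a and, against -2.64 and -2.15 with them, 0.19 for Laptm5 and 0.16 for Lyz1. When 1 array was left out, values ran from -0.22 to 0.38 for C1qa, -0.38 to 0.15 for C1qc, -0.18 to 0.34 for Cd14, -0.69 to 0.49 for Cd68 and -1.35 to 0.13 for Csf1r. List medians then ran from -2.94 to -2.25 (basophil), 0.58 to 1.35 (complement), 0.048 to 0.36 (dendritic), -4.38 to -3.72 (erythroid), -0.041 to 0.45 (island and iron), -2.14 to -1.75 (leukocyte), 0.42 to 0.87 (lysosome), -0.30 to 0.09 (monocyte), -1.07 to -0.40 (neutrophil), 0.09 to 0.46 (osteoclast), 0.39 to 0.91 (endothelium) and 0.33 to 0.97 (regulators). With the dim genes filtered out, medians were 1.91 (complement), 0.45 (dendritic), -1.18 (lymphoid) and 0.86 (osteoclast). The basophil median was -2.38 with a further quantile step, -2.17 with the offset, -2.32 with the mean of probe sets and -3.14 without both arrays numbered 2, where the erythroid one was -4.31. The leukocyte median was -1.72 with the offset and -1.40 with the mean of probe sets, and the lysosome one 0.43 without cross-hybridising probe sets.

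Deviations of samples with the same replicate number were weakly correlated (r of 0.0582, 0.106 and 0.0287), so the numbers were not taken as pairs. For the mean of the 9 genes, however, the array numbered 2 was the highest of either group. The same was true of Lyz2, Adgre1, C1qa, C1qc and Cd14, but not of Mrc1, Cd68, Marco and Vsig4. Whether the numbers mark pairs for these genes was not tested. With a replicate block 1 macrophage gene was lower, as in the fit without it, and Mrc1 stayed at -2.62 (adjusted p = 0.00534). The block called Camp, Elane, Lcn2, Lyz1 and Ngp, and lost C2, Cd163, Dnase2a, Lyve1 and Mmp9. Signals near the floor of the hybridisation limit what can be said of Adgre1, Cd68, C1qa, C1qc, Marco and Vsig4.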
